A study of Mus musculus with 24 samples.

Results

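Neutrophils are short-lived phagocytes that leave the blood along gradients of CXC chemokines. Cxcl1, Cxcl2, Cxcl3 and Cxcl5 encode such chemokines in the mouse, and Cxcr2 encodes the receptor on neutrophils that reads them. Csf3r encodes the receptor for G-CSF, the cytokine that drives neutrophil production. S100a8 and S100a9 encode the subunits of calprotectin, an abundant cytosolic protein of neutrophils and of some monocytes. Ly6g encodes a surface protein used to identify mouse neutrophils, and Retnlg encodes a secreted resistin-like protein of the same cells.

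These 10 genes, 6 neutrophil genes and 4 chemokine genes, were taken by name from the 55202 gene names of a table of expression values in grafts of CT26.WT, a mouse colon carcinoma line of Balb/c origin. Of all names, 38019 had a count in at least 1 library, and all 10 genes were among them. The grafts grew in Balb/c mice on restricted methionine (0.172% of the diet), in Balb/c mice on high methionine (0.86%), in NSG mice on 0.172% and in NSG mice on 0.86%, with 6 libraries in each group. The labels give all mice as male and wild-type and the diets as fed for 3 to 4 weeks, and they name no transgene, drug or age. NSG mice carry immune mutations that remove T, B and NK cells, although the labels list them as wild-type, and they still have neutrophils and macrophages. Balb/c mice are immunocompetent and match the strain of the graft. The hosts therefore differ in strain, in immunity and in match to the graft, and these cannot be told apart. The title of the series contrasts how methionine restriction affects tumour growth in the 2 kinds of host.

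Depth was 31339425 to 42046711 assigned counts per library in Balb/c hosts on 0.172%, 32760046 to 57162217 in Balb/c hosts on 0.86%, 35937162 to 51729669 in NSG hosts on 0.172% and 38777554 to 49310165 in NSG hosts on 0.86%. In the Balb/c group on 0.86%, the values of 14519 genes gave r = 0.9985 between libraries 19 and 23 and r = 0.9983 between libraries 20 and 24, while the remaining 274 library pairs reached at most 0.993. The chi-square per degree of freedom over genes with few counts was 1.24 and 1.19 in these pairs, a little more than sampling noise gives, and 3.27 or more in the rest. The libraries of such a pair were averaged into 1 tumour, named here tumour 19/23 and tumour 20/24, which gives 22 tumours, 4 of them from Balb/c hosts on 0.86% and 6 in each other group. No label states that every library is from its own animal, so the p-values refer to differences among libraries, which may be technical. The 5 T and NK cell markers Cd3e, Cd3g, Cd3d, Ncr1 and Gzmb summed to 46.3 to 3486 normalised counts in Balb/c tumours on 0.172% and 506 to 2265 on 0.86%. In NSG tumours the same sum was 0 to 9.04 on 0.172% and 0 to 1.85 on 0.86%.

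The transcripts of a full neutrophil programme were present only in part. Ly6g had at most 6.79 normalised counts (counts scaled for the depth of the library) in any tumour, and 0 in 6 tumours. Camp, Ngp, Mpo and Elane, which encode granule proteins made while neutrophils mature in bone marrow, reached at most 4.56, 17.9, 14.4 and 5.12 normalised counts in any tumour. They belong to a list of 12 granule protein genes, of which some others reached higher levels. Mmp9 reached 2247, Lcn2 599, Ctsg 359, Mmp8 221, Padi4 198, Cd177 79.98 and Ltf 56.1 normalised counts in the highest tumour. Prtn3 reached only 14.7, between Mpo and Ngp. These values are each from a single tumour, and Cd177 and Ltf were far lower in the median tumour of every group. Of the 10 genes, those other than Ly6g were detected at higher levels than Ly6g. Per kilobase of merged exons, S100a9 had the highest median of the 10 genes in all 4 groups, at 385 normalised counts per kb in Balb/c tumours on 0.172%, 394 in Balb/c tumours on 0.86%, 101 in NSG tumours on 0.172% and 106 in NSG tumours on 0.86%. S100a8 and Cxcl1 took the next places in every group, followed by Csf3r. Retnlg, Cxcr2 and Ly6g closed the order in every group. S100a8 and Cxcl1 had median levels of 167 and 146 normalised counts per kb in Balb/c tumours on 0.172%, 143 and 236 in Balb/c tumours on 0.86%, 39.5 and 86.0 in NSG tumours on 0.172%, and 42.8 and 95.4 in NSG tumours on 0.86%. Their ranges overlapped in every group except NSG tumours on 0.86%. In both NSG groups every tumour had more Cxcl1 than S100a8 per kb. In bulk tumours, fewer cells of a type and less RNA per cell cannot be told apart.

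**Figure D1:**
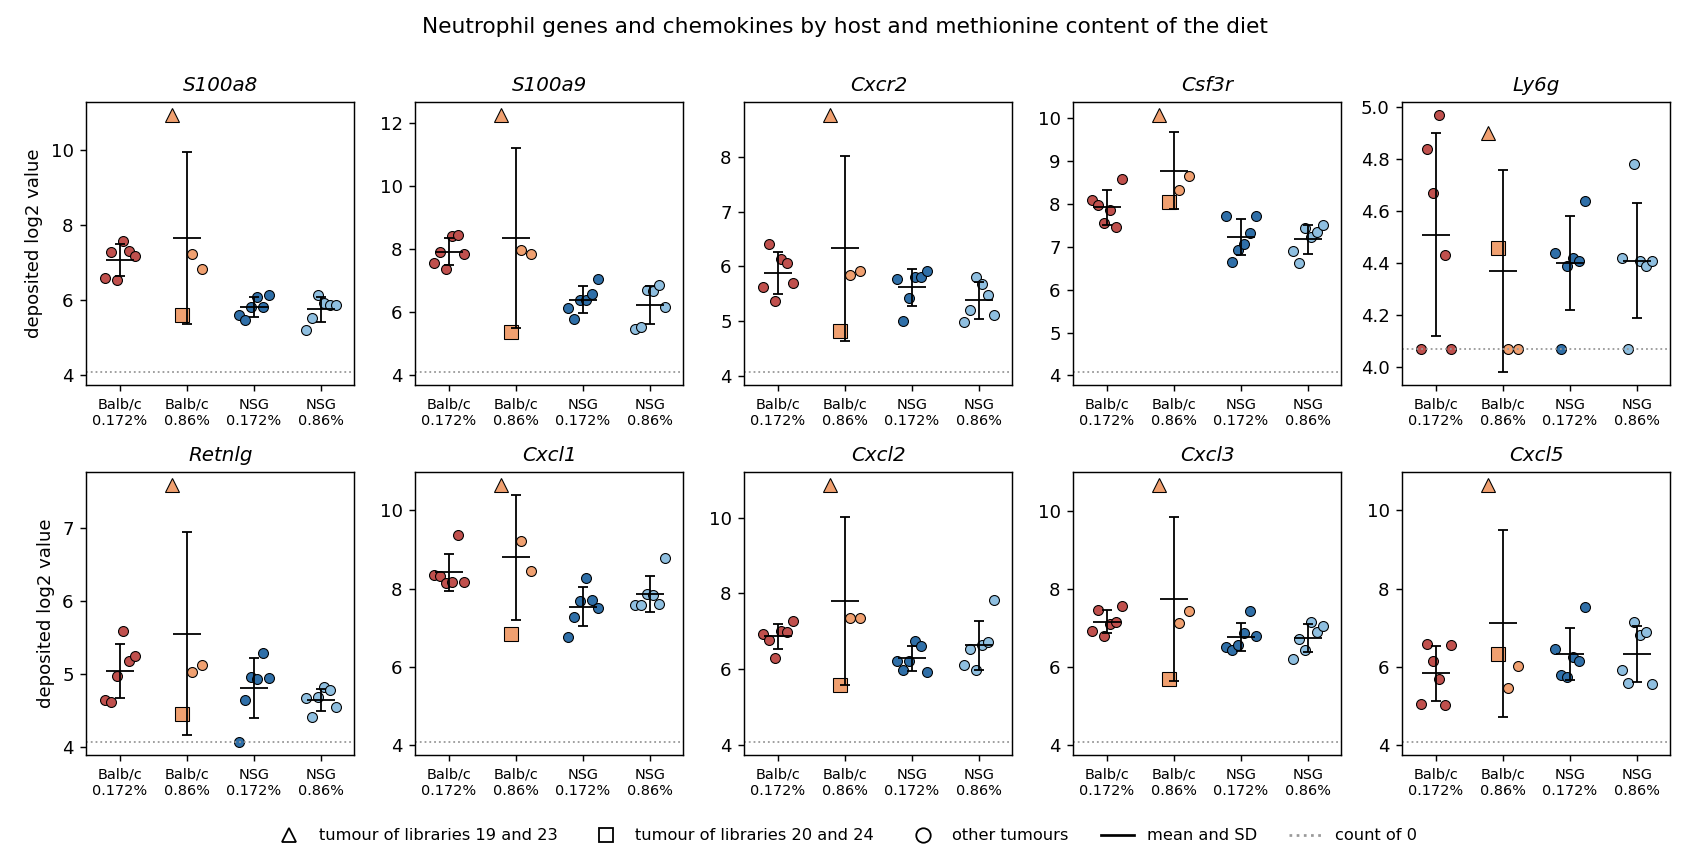
Deposited log2 value (vertical axis, its own range in each panel) of the 10 genes in each of 22 tumours, by host and methionine content of the diet, with the mean and SD of each group. Tumour 19/23 (triangle) lies above the other 21 tumours in every panel except Ly6g, and tumour 20/24 (square) is the lowest Balb/c tumour in 7 of the 10 panels.

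Tumour 19/23 stood apart from every other tumour in 9 of the 10 genes. Of the 18325 genes with a mean of at least 10 normalised counts, 18.5% were also highest in this tumour. S100a9 reached 4841 normalised counts there, 15.6 times the highest of the other 21 tumours, and S100a8 reached 1902, 12.2 times the highest. Cxcl5, Cxcl3 and Cxcl2 stood at 10.3, 10.2 and 9.52 times the highest other tumour. Retnlg and Cxcr2 stood at 7.89 and 7.39 times, Csf3r at 2.83 times and Cxcl1 at 2.52 times the highest other tumour. Ly6g, at 5.65 normalised counts, was below the highest other tumour. Both libraries of the pair, which were averaged because they were so alike, showed these levels. S100a9 had 5551 assigned counts in library 19 and 3982 in library 23.

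Tumour 20/24, of the same host and diet, lay at the opposite end. It had the lowest level of the 10 Balb/c tumours in 7 of the 10 genes, against 13.9% of the 18325 genes. S100a9 had 13.9 normalised counts there, against 131 in the next lowest Balb/c tumour, and Cxcr2 had 5.07, against 14.6. Cxcl3 had 23.6, against 78.8, and Cxcl1 had 83.3, against 250.1. Csf3r was an exception, since its 233 normalised counts in tumour 20/24 were close to the median of 231 in the 8 Balb/c tumours other than these 2. Results on the high methionine diet in Balb/c hosts rest on these 2 tumours and on tumours 21 and 22, and are therefore given with and without tumour 19/23 or both. Without both, only tumours 21 and 22 of this group remain.

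Markers of other cell types moved with tumour 19/23. The summed red blood cell markers were 33149 normalised counts in it, against 2090 to 12139 in the other 21 tumours, with all 5 genes highest in this tumour. Endothelial markers summed to 9669, against 1967 to 5993, again with all 5 genes highest. Fibroblast markers summed to 186320, against 19980 to 92145, and here 2 of 5 genes, Col1a1 and Col3a1, were highest in tumour 19/23 while Dcn, Pdgfra and Lum lay within the range of the others. Platelet markers summed to 5143, against 898 to 1604, of which 5001.5 was Pf4, a gene of the chemokine cluster described below. The other 4 platelet genes, Itga2b, Gp9, Gp6 and Gp1ba, lay within the range of the other tumours. Macrophage and monocyte markers summed to 52133, within the 24155 to 65448 of the other tumours, although 3 of 9 genes were highest in tumour 19/23. Ly6c2, a monocyte surface gene, was at 4142 there and at most 1135 elsewhere. Cd68 was at 5179, against at most 4744.5, and Ccr2 at 2664, against at most 2556. Eosinophil markers summed to 33.6, against 1.85 to 21.8, with 2 of 5 genes highest in tumour 19/23. Keratinocyte markers summed to 116, within the 71.7 to 173 of the others, and 113.6 of this was Krt10. Tumour 20/24 had the lowest red blood cell sum, 2090, and the lowest platelet sum, 898, of which 774.7 was Pf4. Its endothelial, fibroblast and macrophage and monocyte sums, at 5128, 80834 and 52433, lay within the ranges given above. The part of these cells in the levels of tumours 19/23 and 20/24 was not tested.

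Both calprotectin genes had higher values in Balb/c than in NSG tumours on the restricted diet, without overlap between the groups. S100a8 ranged from 61.3 to 156 normalised counts with a median of 116 in Balb/c tumours on 0.172%, against 16.6 to 40.2 with a median of 27.4 in NSG tumours on 0.172%. S100a9 ranged from 131 to 311 with a median of 201 in Balb/c tumours and from 25.8 to 101 with a median of 52.8 in NSG tumours. Every Balb/c tumour lay above every NSG tumour for both genes. These were 2 of the 10 genes, against 1.04% of all 38019 genes.

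The limma test, whose spread is shared by all 4 groups, did not call either gene on 0.172%. S100a8 differed by 1.25 ± 0.56 (SE) on the deposited log2 scale with a Benjamini-Hochberg adjusted p of 0.33, and S100a9 by 1.53 ± 0.71 with an adjusted p of 0.353 (n = 6 tumours each, limma). The difference itself does not involve tumour 19/23, but the shared spread does. Without that tumour the limma adjusted p was 0.00239 for S100a8 and 0.0354 for S100a9, and in a fit on the 12 tumours of the contrast alone it was 0.000862 and 0.0013. None of the 10 genes was called for host on 0.172%, where 2.09% of all genes were called. Keratinocytes and monocytes also transcribe these genes. Keratinocyte markers summed to 86.97 to 154.5 normalised counts in Balb/c tumours on 0.172%, against 72.9 to 136 in NSG tumours. Krt6a and Sprr1b were at 0 in all Balb/c tumours of this diet and Sprr1b at 0 in all NSG tumours of this diet. Krt10 made up most of these sums, at 86.97 to 134 in the Balb/c tumours and 69.2 to 123 in the NSG tumours. The sums of monocyte markers, which overlapped between hosts on this diet, are given with Csf3r, and their part in the S100a8 and S100a9 values was not tested.

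On 0.86% methionine the same genes gave a wide spread in Balb/c hosts. S100a8 had 1902, 117, 81.8 and 20.9 normalised counts in Balb/c tumours 19/23, 21, 22 and 20/24, against 10.9 to 39.97 with a median of 29.7 in NSG tumours. S100a9 had 4841, 217, 194 and 13.9 in the same order of Balb/c tumours, against 16.8 to 83.7 with a median of 55.1 in NSG tumours. In both genes 3 of the 4 Balb/c tumours lay above every NSG tumour and tumour 20/24 did not. The limma differences were 1.89 ± 0.63 (adjusted p = 0.146) and 2.13 ± 0.80 (adjusted p = 0.223), with 4 against 6 tumours. Without tumour 19/23 they were 0.80 (limma adjusted p = 0.245) and 0.83 (adjusted p = 0.652), and without tumour 20/24 2.57 (adjusted p = 0.0174) and 3.13 (adjusted p = 0.0146). Without both they were 1.27 (limma adjusted p = 0.0106) and 1.68 (adjusted p = 0.0225). That last fit was added after seeing the data and kept 2 Balb/c tumours on 0.86%. It left out tumour 20/24, the only Balb/c tumour not above every NSG tumour.

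The ratio of S100a9 to S100a8 normalised counts had a median of 2.05 in Balb/c tumours on 0.172%, 2.11 in Balb/c tumours on 0.86%, 1.97 in NSG tumours on 0.172% and 1.67 in NSG tumours on 0.86%. Its range ran from 0.664, in Balb/c tumours on 0.86%, to 2.81, in NSG tumours on 0.86%. Over all 22 tumours, with group means removed, the deposited log2 values of both genes correlated at r = 0.97, and at r = 0.85 without tumours 19/23 and 20/24. The group means were those of all 22 tumours in both cases, so the second value is not free of these tumours. S100a8 and S100a9 lie near each other on chromosome 3 (mm10, GENCODE), S100a8 on the plus strand at chr3:90668978-90670035 and S100a9 on the minus strand at chr3:90692632-90695721.

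The 4 genes listed as receptors of the calprotectin proteins, Tlr4, Ly96, Cd14 and Ager, gave 0 calls in any contrast. Cd14, a co-receptor of Tlr4, differed by 0.61 ± 0.18 between hosts on 0.172% (limma adjusted p = 0.0861) and by 0.09 ± 0.20 on 0.86% (adjusted p = 0.918). Ly96, which encodes the Tlr4 partner MD-2, differed by 0.37 ± 0.12 between hosts on 0.172% (limma adjusted p = 0.103). Tlr4 itself had an estimate in the other direction on 0.86%, at -0.30 ± 0.13 (limma adjusted p = 0.317).

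Csf3r was the only one of the 10 genes called in any contrast, and it was higher in Balb/c than in NSG tumours on 0.86%. It had 1049.6, 371, 289 and 233 normalised counts in Balb/c tumours 19/23, 22, 21 and 20/24, against 68.4 to 151 with a median of 125 in NSG tumours. All 4 Balb/c tumours lay above all 6 NSG tumours, as for 1 of the 10 genes and 2.75% of all genes. Csf3r averaged 486 ± 380 normalised counts in Balb/c tumours and 116 ± 31.8 in NSG tumours (SD, n = 4 and 6). The difference was 1.60 ± 0.31 on the log2 scale with a limma adjusted p of 0.00475, in a contrast that called 2.53% of all genes. It passed the threshold in all 31 alternatives run, with limma adjusted p-values of 1.39e-05 to 0.0314, and without tumour 19/23 it was 1.17 with an adjusted p of 0.0153.

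On 0.172% Csf3r ranged from 145 to 351 with a median of 209 in Balb/c tumours, against 69.2 to 177 with a median of 116 in NSG tumours. These groups overlapped, and the difference of 0.69 ± 0.28 was not called (limma adjusted p = 0.252). Csf3r is also transcribed in monocytes and macrophages, and their markers moved with the host. The 9 macrophage and monocyte markers summed to 50807 to 65448 normalised counts in Balb/c tumours on 0.86%, against 28265 to 47586 in NSG tumours, with 2 of 9 (C1qc and Ccr2) called higher and none of the 9 at 0 in a group. On 0.172% they summed to 26729 to 58158 in Balb/c tumours, against 24155 to 42777 in NSG tumours, with 1 of 9 (C1qc) called higher. Endothelial markers summed to 5128 to 9669 in Balb/c tumours on 0.86% and 1967 to 3413 in NSG tumours, with 4 of 5 called higher. Eosinophil markers summed to 7.72 to 33.6 in Balb/c tumours on 0.86% and 1.85 to 14.4 in NSG tumours, with 1 of 5 (Siglecf) called higher. The part of these cells in the Csf3r difference was not tested.

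Cxcr2 and Retnlg had few counts and were not called in any contrast. Cxcr2 ranged from 14.6 to 54.4 normalised counts with a median of 30.8 in Balb/c tumours on 0.172%, against 7.38 to 31.3 with a median of 26.6 in NSG tumours. On 0.86% it had 402, 31.3, 28.7 and 5.07 in Balb/c tumours 19/23, 22, 21 and 20/24, against 6.91 to 27.7 with a median of 14.2 in NSG tumours. The groups overlapped on both diets, with host differences of 0.26 ± 0.43 (limma adjusted p = 0.85) on 0.172% and 0.95 ± 0.48 (adjusted p = 0.436) on 0.86%. On 0.86% the Cxcr2 estimate was 0.14 without tumour 19/23. Retnlg ranged from 2.47 to 20.4 in Balb/c tumours on 0.172%, against 0 to 12.8 in NSG tumours. On 0.86% it had 161, 9.20, 7.72 and 1.23 in Balb/c tumours 19/23, 22, 21 and 20/24, against 0.912 to 4.63 in NSG tumours. The host differences of Retnlg were 0.24 ± 0.36 (limma adjusted p = 0.832) and 0.90 ± 0.40 (adjusted p = 0.344), and on 0.86% 0.22 without tumour 19/23.

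Ly6g ranged from 0 to 6.79 normalised counts in Balb/c tumours on 0.172%, 0 to 5.65 in Balb/c tumours on 0.86%, 0 to 2.68 in NSG tumours on 0.172% and 0 to 4.10 in NSG tumours on 0.86%. All 4 groups overlapped and reached 0. At this depth no difference in Ly6g was detectable, and its reads can be shared with near-identical genes of the Ly6 family, and how such reads were counted is not stated in the sources used here.

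The 4 chemokine genes lie in a cluster on chromosome 5, on the plus strand, in the order Cxcl5, Ppbp, Pf4, Cxcl3, Cxcl15, Cxcl1 and Cxcl2. Cxcl5 occupies chr5:90759360-90761624, Cxcl3 chr5:90786103-90789600, Cxcl1 chr5:90891241-90893115 and Cxcl2 chr5:90903871-90905938 (mm10, GENCODE). No other annotated gene overlaps any of the 10 genes. Cxcl1, Cxcl2 and Cxcl3 are similar in sequence, so reads may be split between them. The 120 bases before the RefSeq start of each of these 3 genes are printed because all hold 1 shared element. The sequences are from RefSeq on GRCm38.p6, plus strand, 5′ to 3′, and the capitals mark the shared 10-base element, which is a match to the NF-kB consensus.
Cxcl1: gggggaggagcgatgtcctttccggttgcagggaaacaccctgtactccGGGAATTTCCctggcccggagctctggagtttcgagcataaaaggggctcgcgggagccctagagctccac
Cxcl2: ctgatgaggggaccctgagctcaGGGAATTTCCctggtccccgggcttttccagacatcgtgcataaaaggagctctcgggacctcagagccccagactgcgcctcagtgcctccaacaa
Cxcl3: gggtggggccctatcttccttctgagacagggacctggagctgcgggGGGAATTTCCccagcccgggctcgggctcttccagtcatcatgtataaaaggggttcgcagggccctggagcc
The windows are chr5:90891125-90891244 for Cxcl1, chr5:90903779-90903898 for Cxcl2 and chr5:90785981-90786100 for Cxcl3. They end at the base before the RefSeq starts at 90891245, 90903899 and 90786101, which differ from the GENCODE starts given above, so the windows of Cxcl1 and Cxcl2 run into the GENCODE genes.

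NF-kB is a family of transcription factors that inflammatory signals bring into the nucleus. The element starts 71 bases before the RefSeq start of Cxcl1, 97 before that of Cxcl2 and 73 before that of Cxcl3. Promoter windows of 300 bases, 250 before and 50 after a RefSeq start, were found for 9 of the 10 genes, all but Cxcl5. On either strand, 4 of these 9 genes held a match to the NF-kB consensus, the 3 chemokine genes and Csf3r. In each of the 3 chemokine genes the match on the minus strand overlaps that on the plus strand. The consensus was found in 8.46% of 32851 windows, a share per window and not per gene, since the windows belong to 27025 genes. The exact 10 letters were in 29 windows, or 0.0883%, those of the 3 chemokine genes included. These letters were picked because the 3 genes share them, so their rarity is no test. A match describes letters in a window and does not show that a factor binds there.

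Cxcl1 had the highest level per length of the 4 chemokine genes in every group. It ranged from 250.1 to 629 normalised counts with a median of 273 in Balb/c tumours on 0.172%, against 76.8 to 274 with a median of 161 in NSG tumours. On 0.86% it had 1586, 568, 318 and 83.3 in Balb/c tumours 19/23, 21, 22 and 20/24, against 158 to 406 with a median of 179 in NSG tumours. The groups overlapped on both diets. The host difference was 0.89 ± 0.44 (limma adjusted p = 0.392) on 0.172% and 0.92 ± 0.49 (adjusted p = 0.478) on 0.86%. Without tumour 20/24 the value on 0.86% was 1.58 and was called (limma adjusted p = 0.0342), and without tumour 19/23 it was 0.30.

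Cxcl2 and Cxcl3 were likewise highest in tumour 19/23 and lowest in tumour 20/24. Cxcl2 ranged from 47.7 to 121 normalised counts with a median of 91.8 in Balb/c tumours on 0.172%, against 31.3 to 75.8 with a median of 44.0 in NSG tumours. On 0.86% it had 1841, 131.5, 130.2 and 20.7 in Balb/c tumours 19/23, 22, 21 and 20/24, against 33.8 to 193 with a median of 64.8 in NSG tumours. Cxcl3 ranged from 78.8 to 155 with a median of 108 in Balb/c tumours on 0.172%, against 55.4 to 140.0 with a median of 72.1 in NSG tumours. On 0.86% it had 1591, 141, 108 and 23.6 in Balb/c tumours 19/23, 22, 21 and 20/24, against 43.4 to 110.2 with a median of 81.3 in NSG tumours. The groups overlapped in each case. For Cxcl2 the host difference was 0.59 ± 0.57 on 0.172% and 1.16 ± 0.63 on 0.86% (limma adjusted p = 0.708 and 0.495), and 0.13 on 0.86% without tumour 19/23. For Cxcl3 it was 0.39 ± 0.52 on 0.172% and 0.99 ± 0.58 on 0.86% (limma adjusted p = 0.799 and 0.531), and 0.01 on 0.86% without tumour 19/23.

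Cxcl5, whose product in the mouse also goes by the name LIX, differed from the other chemokines in the sign of its host estimate on 0.172%. It ranged from 7.37 to 64.3 normalised counts with a median of 32.0 in Balb/c tumours on 0.172%, against 24.9 to 154 with a median of 43.8 in NSG tumours. The groups overlapped, and the difference of -0.48 ± 0.66 was not called (limma adjusted p = 0.807). On 0.86% it had 1585, 50.03, 35.9 and 16.5 in Balb/c tumours 19/23, 20/24, 22 and 21, against 19.4 to 111 with a median of 56.1 in NSG tumours. The difference there was 0.80 ± 0.74 (limma adjusted p = 0.715) and turned to -0.38 without tumour 19/23.

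**Figure D2:**
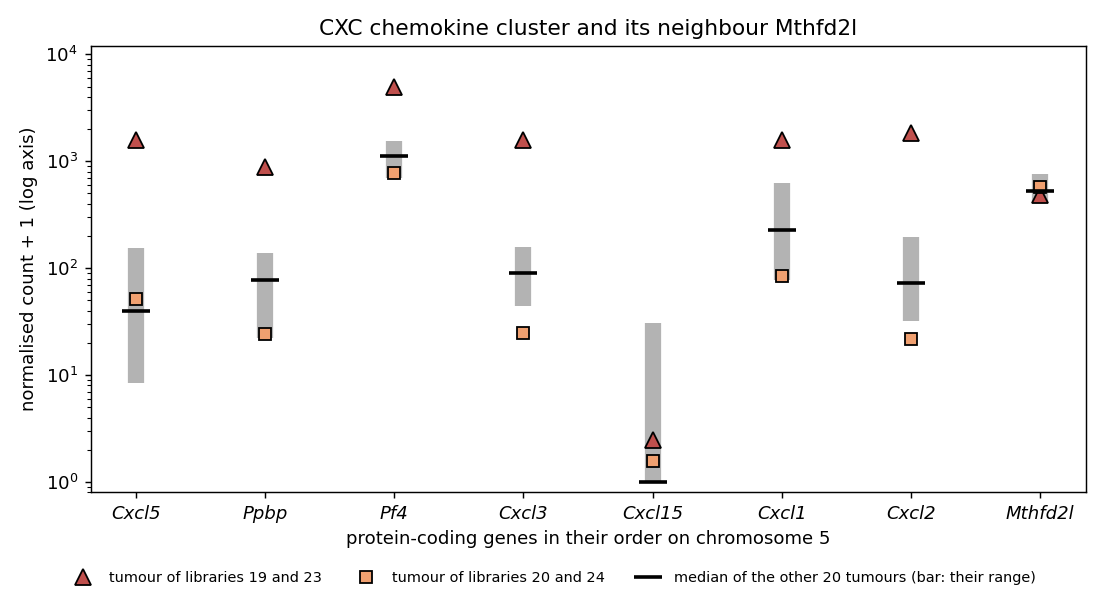
Normalised count plus 1 (vertical log axis) of the protein-coding genes of the CXC chemokine cluster and the neighbouring gene Mthfd2l, in their order on chromosome 5, for tumour 19/23, tumour 20/24 and the median and range of the other 20 tumours. Tumour 19/23 lies above the range at Cxcl5, Ppbp, Pf4, Cxcl3, Cxcl1 and Cxcl2, and within it at Cxcl15 and Mthfd2l.

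The elevation of tumour 19/23 ran across most genes of the cluster. Ppbp, which encodes a platelet chemokine precursor, had 891 normalised counts in tumour 19/23, against at most 138 in the 20 tumours other than 19/23 and 20/24. Pf4, which encodes platelet factor 4, had 5001.5, against at most 1542. Mthfd2l, a mitochondrial folate enzyme gene that borders the cluster, had 482, within the 408 to 760.2 of these 20 tumours. Cxcl15, a lung chemokine, had 1.48, within their 0 to 29.4.

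Methionine restriction in Balb/c hosts gave lower estimates for 9 of the 10 genes, and none was called, in a contrast that called 0.00263% of all genes. The median difference of the 10 genes was -0.54, against 0.00 for all 38019 genes. Csf3r had the smallest p, with 145 to 351 normalised counts on 0.172%, against 233 to 1049.6 on 0.86%, a difference of -0.86 ± 0.31 (limma adjusted p = 0.447). Cxcl5 differed by -1.28 ± 0.74, Cxcl2 by -0.92 ± 0.63 and S100a9 by -0.44 ± 0.80 (limma adjusted p = 0.743, 0.825 and 0.97). Without tumour 19/23 the estimates of S100a8, S100a9, Cxcr2, Retnlg, Cxcl1, Cxcl2 and Cxcl3 turned positive, at 0.52, 0.86, 0.36, 0.17, 0.25, 0.10 and 0.41, and Csf3r was at -0.42. Without tumours 19/23 and 20/24 S100a8 stood at 0.05, S100a9 and Cxcr2 at 0.01, Retnlg at -0.03, Cxcl3 at -0.12, Cxcl1 at -0.42, Cxcl2 at -0.48 and Csf3r at -0.57. The sign of the diet estimate in Balb/c hosts thus changed with 1 tumour for 7 of the 10 genes.

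In NSG hosts the diets overlapped for all 10 genes. S100a8 ranged from 16.6 to 40.2 normalised counts on 0.172%, against 10.9 to 39.97 on 0.86%, and differed by 0.06 ± 0.56. S100a9 ranged from 25.8 to 101 on 0.172%, against 16.8 to 83.7 on 0.86%, and differed by 0.16 ± 0.71. Cxcl1 ranged from 76.8 to 274 on 0.172%, against 158 to 406 on 0.86%, and differed by -0.34 ± 0.44. None of the 10 genes was called (limma adjusted p of 0.895 to 1), in a contrast that called 0.00526% of all genes. A p that misses the threshold does not show equal levels, and the standard errors in this contrast were 0.16 to 0.71. These include the spread of tumour 19/23, and were 0.15 to 0.38 without it and 0.13 to 0.38 in a fit on the NSG tumours alone, where again none of the 10 genes was called.

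The difference of the diet effects between hosts was also tested. None of the 10 genes was called, and 0.0% of all genes were (2447 of 38019 had an unadjusted p under 0.05). The estimate, Balb/c minus NSG, was -0.91 ± 0.42 for Csf3r (limma adjusted p = 0.755), -1.28 ± 0.99 for Cxcl5 and -0.03 ± 0.66 for Cxcl1. Without tumour 19/23 the estimates of S100a8, S100a9, Cxcr2, Retnlg, Cxcl1, Cxcl2 and Cxcl3 were positive.

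**Figure D3:**
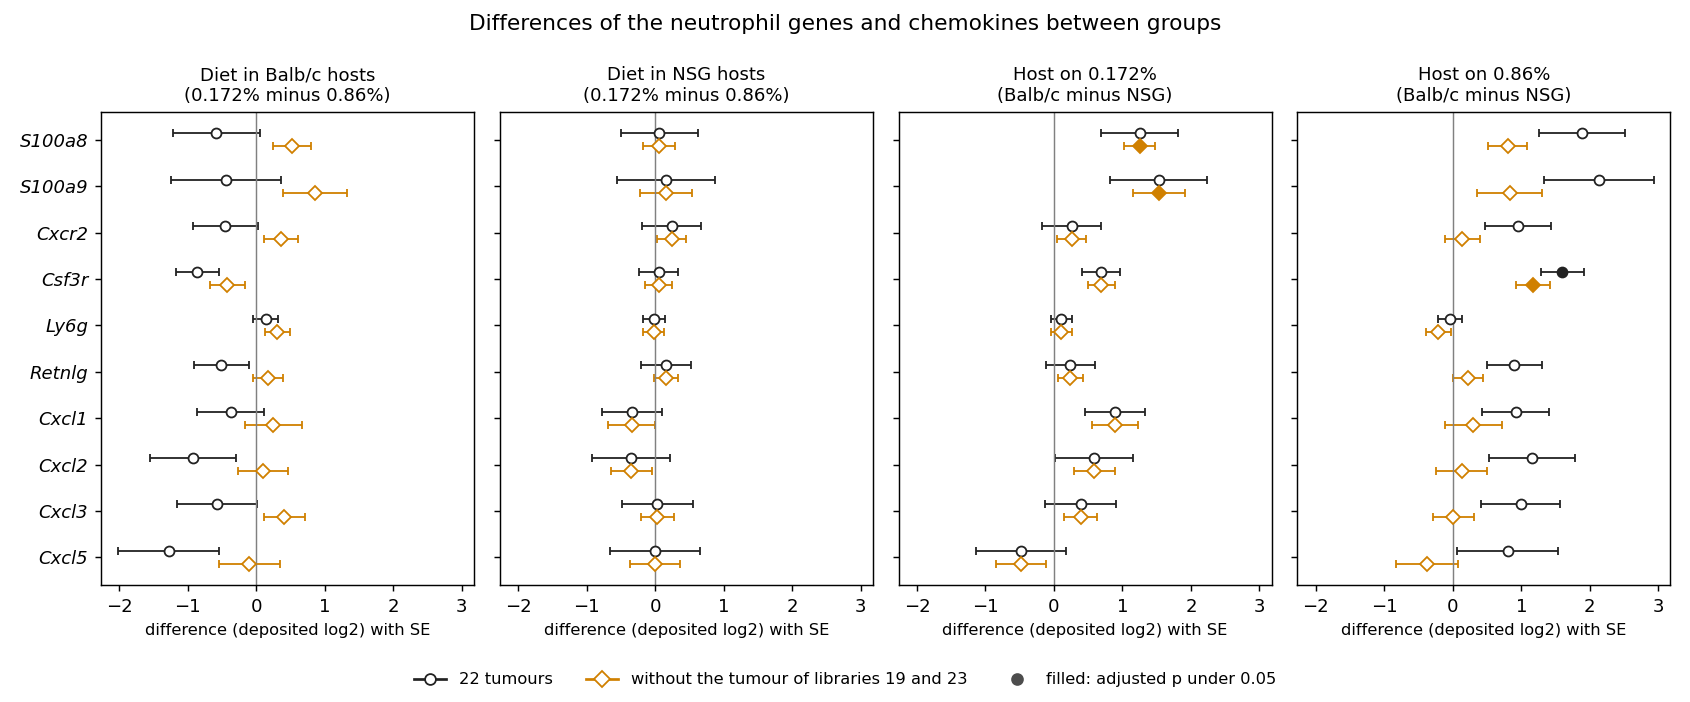
Differences on the deposited log2 scale with their standard errors (horizontal axis) for the 10 genes in the 4 contrasts of diet or host, from all 22 tumours (circles) and without tumour 19/23 (diamonds), with filled symbols where the limma adjusted p was under 0.05. Csf3r for host on 0.86% is the filled circle, S100a8 and S100a9 for host on 0.172% and Csf3r on 0.86% are the filled diamonds, and in Balb/c hosts the diet estimates of 7 genes change sign between circles and diamonds.

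The neutrophil genes and the chemokine genes varied together across the 22 tumours, and less closely without tumours 19/23 and 20/24. With group means removed, the 20 correlations between a neutrophil gene other than Ly6g and a chemokine gene ranged from 0.46 to 0.94 with a median of 0.80 over 22 tumours. Without both tumours they ranged from -0.17 to 0.63 with a median of 0.38. Among the 4 chemokines the median of 6 correlations was 0.76 over 22 tumours and 0.32 without both tumours, with Cxcl2 and Cxcl3 the closest at 0.94 and 0.69. Among the neutrophil genes other than Ly6g the median of 10 was 0.86 and 0.51. The group means removed were those of all 22 tumours throughout, so the values without both tumours are not free of them. All values of 1 tumour share a library and its scaling, so these correlations are descriptions.

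**Figure D4:**
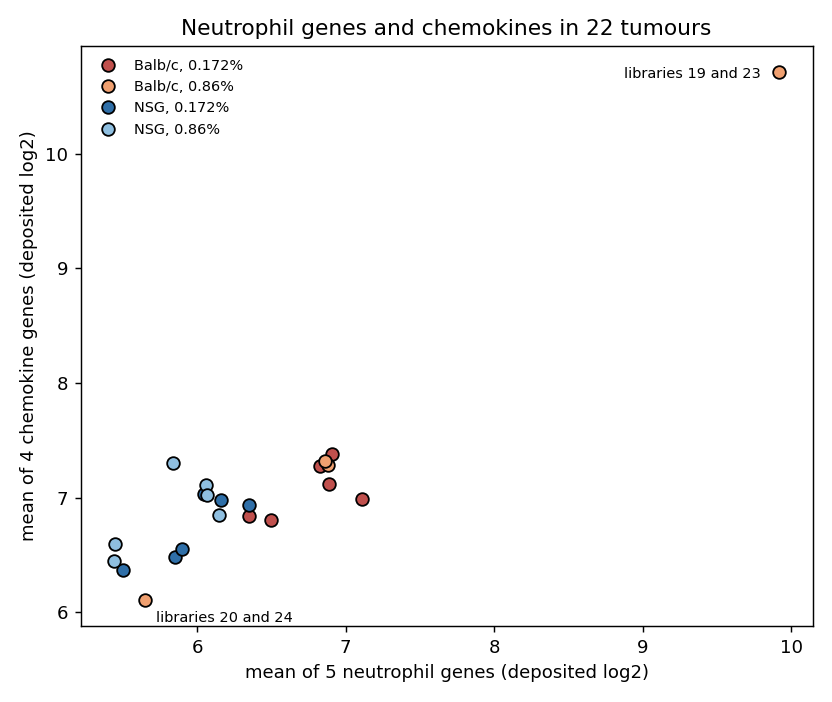
Mean deposited log2 value of 5 neutrophil genes (S100a8, S100a9, Cxcr2, Csf3r and Retnlg, horizontal axis) against that of the 4 chemokine genes (vertical axis) in each of 22 tumours, coloured by host and diet. Tumour 19/23 lies alone at 9.92 and 10.71, tumour 20/24 lies at 5.65 and 6.11, and the other 20 tumours lie at up to 7.11 and 7.38.

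The mean of the 5 neutrophil genes was 6.35 to 7.11 on the deposited log2 scale in Balb/c tumours on 0.172%, 5.65 to 9.92 in Balb/c tumours on 0.86%, 5.5 to 6.35 in NSG tumours on 0.172% and 5.44 to 6.15 in NSG tumours on 0.86%. The mean of the 4 chemokines was 6.81 to 7.38 in Balb/c tumours on 0.172%, 6.11 to 10.71 in Balb/c tumours on 0.86%, 6.37 to 7.03 in NSG tumours on 0.172% and 6.45 to 7.30 in NSG tumours on 0.86%.

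Genes most like the 5 neutrophil genes over 22 tumours, with group means removed, were Prl2c3 (r = 0.951), Prl2c2 (0.941), G0s2 (0.934), Plin2 (0.920), Hdc (0.901) and Hcar2 (0.898), of 12278 genes compared. Those most like the 4 chemokines were Hcar2 (0.934), Hilpda (0.931), Prl2c3 (0.924), G0s2 (0.922), Prl2c2 (0.914) and Plin2 (0.898). Prl2c2 and Prl2c3 encode proliferins and are near-identical copies, so their values are uncertain. G0s2, Plin2 and Hilpda encode proteins of lipid droplets, Hdc the enzyme that makes histamine, and Hcar2 a receptor of hydroxycarboxylic acids. All 7 were higher in tumour 19/23 than in any other tumour, for example G0s2 at 673 normalised counts, against at most 41.1. Hdc and Hcar2 also belong to the list of neutrophil receptors and effectors below. Without tumour 19/23 the correlations with the neutrophil genes were 0.86 for Prl2c3, 0.83 for Prl2c2 and 0.82 for G0s2. They were 0.81 for Plin2, 0.73 for Hdc and 0.78 for Hcar2, and those with the chemokines were 0.75 to 0.86. The group means removed were still those of all 22 tumours. A gene very high in tumour 19/23 therefore leaves the other tumours of its group, all of them kept, below the mean removed. For this reason these values do not show whether the likeness holds apart from tumour 19/23.

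Other genes of the neutrophil programme were read from lists of the pathway. Of 12 granule protein genes, 2 were called higher and none lower in Balb/c tumours on 0.172%, with a median difference of 0.20, against 2.09% called and a median of 0.00 for all genes. Lcn2, which encodes the iron-siderophore binding protein lipocalin-2, ranged from 298 to 479.7 normalised counts in Balb/c tumours, against 12.4 to 107 in NSG tumours, without overlap. It differed by 2.49 ± 0.36 (limma adjusted p = 0.000324) and was called in all 31 alternatives. Ctsg, the gene of cathepsin G, ranged from 0 to 359 in Balb/c tumours, against 0 to 4.97 in NSG tumours, and differed by 2.42 ± 0.55 (limma adjusted p = 0.0229).

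The Ctsg call was lost in 3 of 31 alternatives, the fit on the groups of the contrast only (limma adjusted p = 0.135), voom on recovered counts (0.166) and the fit without tumour 18 (0.0593). Ctsg is also made by mouse mast cells. The 6 mast cell and basophil markers summed to 599.6 to 1964 normalised counts in Balb/c tumours on 0.172%, against 229.7 to 1171 in NSG tumours. All 6 had estimates above 0, and 1 of 6 (Kit) was called higher. Among them Mcpt8 ranged from 1.05 to 215 with a median of 63.0 in Balb/c tumours, against 1.85 to 13.4 with a median of 6.52 in NSG tumours. The part of these cells in the Ctsg values was not tested. Of the other granule genes, Mpo and Elane were at 0 in all Balb/c tumours on 0.172%. On 0.86%, 1 of the 12 granule genes was called higher, against 2.53% of all genes, with a median of 0.46 that was 0.08 without tumour 19/23. This was Mmp8, the gene of neutrophil collagenase, at 53.8 to 214 in Balb/c tumours, against 16.8 to 58.4 in NSG tumours, a difference of 1.07 ± 0.27 (limma adjusted p = 0.0267). That call was lost in 7 of 31 alternatives. The limma adjusted p of Mmp8 was 0.169 without tumour 19/23, 0.0905 without tumour 22, 0.064 without tumour 7, 0.0637 without tumour 8 and 0.0552 without tumour 11. Lcn2 was not called on 0.86%, where it ranged from 63.0 to 599 in Balb/c tumours, against 77.0 to 212 in NSG tumours.

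Of 18 other receptor and effector genes, 1 was called higher in Balb/c tumours on 0.172% (median difference 0.50) and 2 on 0.86% (median 0.83), and none lower, against 2.09% and 2.53% of all genes called. Without tumour 19/23 the median on 0.86% was 0.39. Fpr2, which encodes a formyl peptide receptor, was called in both. It ranged from 98.9 to 471 normalised counts in Balb/c tumours on 0.172%, against 52.6 to 104 in NSG tumours, and from 179 to 745 in Balb/c tumours on 0.86%, against 43.8 to 99.1 in NSG tumours. Its differences were 1.38 ± 0.28 (limma adjusted p = 0.00913) and 1.95 ± 0.32 (adjusted p = 0.00118), and both were called in all 31 alternatives. Fcgr4, the gene of an activating IgG receptor, ranged from 234 to 2282 in Balb/c tumours on 0.86%, against 72.1 to 166 in NSG tumours, and differed by 2.44 ± 0.54 (limma adjusted p = 0.0156). That call was lost without tumour 19/23 (adjusted p = 0.0933) and without tumour 22 (0.0674). Macrophages also transcribe Fpr2 and Fcgr4, and their summed markers are given beside Csf3r above.

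A further list held 14 genes, namely other chemokines and cytokines that act on neutrophils and the chemokine receptor gene Ackr1. Of these, 1 was called higher in Balb/c tumours on each diet and none lower, against 2.09% of all genes on 0.172% and 2.53% on 0.86%. The median differences were 0.05 on 0.172% and 0.45 on 0.86%, the value on 0.86% being 0.15 without tumour 19/23. Il1a, an interleukin-1 gene, ranged from 14.6 to 73.9 normalised counts in Balb/c tumours on 0.172%, against 3.39 to 17.2 in NSG tumours, and differed by 1.12 ± 0.25 (limma adjusted p = 0.0172). Without tumour 18 its adjusted p was 0.05. Ccl4, a chemokine of macrophages and lymphocytes, ranged from 65.6 to 749.6 in Balb/c tumours on 0.86%, against 42.0 to 153 in NSG tumours, and differed by 1.42 ± 0.35 (limma adjusted p = 0.0323). Its call was lost in 9 of 31 alternatives. The limma adjusted p of Ccl4 was 0.12 without tumour 19/23, at a difference of 0.91, and 0.0609 to 0.0801 without tumour 7, 8, 10, 11, 21 or 22.

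Of 12 NF-kB target and feedback genes, none was called for host on 0.172% (median difference 0.29) and 1 was called higher in Balb/c tumours on 0.86% (median 0.21, and 0.18 without tumour 19/23), against 2.09% and 2.53% of all genes. Icam1, an adhesion gene of the vessel wall, ranged from 278 to 578 normalised counts in Balb/c tumours on 0.86%, against 138 to 260.4 in NSG tumours, without overlap, and differed by 1.01 ± 0.22 (limma adjusted p = 0.0116). Its call was lost in 3 of 31 alternatives, with an adjusted p of 0.0842 without tumour 19/23, 0.0527 without tumour 22 and 0.0624 without tumours 19/23 and 20/24. Nfkbia, the gene of an NF-kB inhibitor, differed by 0.66 ± 0.18 between hosts on 0.172% (limma adjusted p = 0.0537). In tumour 19/23 the 12 genes summed to 41755 normalised counts, within the 25439 to 48937 of the other tumours, while 5 of the 12 were highest in this tumour. Bcl3 stood there at 1232, 2.27 times the highest other tumour, Zfp36 at 1.90 times, Sod2 at 1.39 times, Icam1 at 1.23 times and Nfkbia at 1.03 times.

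No gene of these 5 lists was called for diet in either host. In Balb/c hosts 17 of the 18 receptor and effector genes had estimates below 0, with a median of -0.45, and 15 of the 18 were highest in tumour 19/23. Without that tumour 10 of 18 were below 0, with a median of -0.03. The smallest p was that of Ptafr, the platelet-activating factor receptor gene, at -1.03 ± 0.27 (limma adjusted p = 0.239). Lcn2 differed between diets by 0.88 ± 0.40 in Balb/c hosts and by -1.12 ± 0.36 in NSG hosts (limma adjusted p = 0.624 and 0.609), and the difference of these estimates, 1.99 ± 0.53, was not called (adjusted p = 0.46).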

How the data were processed

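RNA-seq was done on 24 CT26.WT graft libraries. The labels disagree on the kit (stranded with ribosomal depletion, or poly(A) enriched), so strandedness is not settled. STAR, featureCounts and DESeq2 on mm10 are named in the submitters' processing notes, with versions, annotation and the treatment of multi-mapping reads not given in the sources used here. By their values, the deposited log2 data are variance-stabilised counts. The deposited log2 values have a floor of 4.0711, which is a count of 0, and inverting that scale gave whole counts within 0.01 for 100% of 640012 values above it, from which depth and normalised counts were computed. On this scale, differences understate the change of genes with few counts. Of 55228 lines, 26 with a date as name were dropped. At 31339425 to 57162217 assigned counts per library, counting error matters mainly for genes with few counts.

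The main test was limma 3.58.1 in R 4.3.3 (eBayes with trend and robust, statmod 1.5.0) on the deposited log2 values of 22 tumours, two-sided, with 4 group means and a shared spread, Benjamini-Hochberg adjusted over 38019 genes, threshold 0.05. It was also run on simulated counts with the same dispersion for all genes and no outlying tumour. That run cannot show how tumours 19/23 and 20/24 affect the test. Contrasts are 0.172% minus 0.86% and Balb/c minus NSG. The members, lists and tests were chosen with earlier results of these data known. Besides the 10 members, up to 4 called genes per list and contrast were named by smallest adjusted p, or up to 2 by smallest p where none was called, of which only some are printed. Likeness used genes with a mean of at least 20 normalised counts. Alternatives were all 24 libraries, log2(normalised count + 10), a mean of at least 10 normalised counts, median centring, plain eBayes, arrayWeights (gene by gene), the groups of the contrast only, voom on recovered counts and leaving out each tumour. Leaving out libraries 19, 20, 23 and 24 together was added after seeing the data. Positions are from GENCODE mouse release 21, and 53543 of the names matched it. Python 3.11.15 with pandas 2.3.3, numpy 2.4.6, scipy 1.17.1 and matplotlib 3.10.9 made the summaries and plots.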

Additional observations from a re-analysis of the deposited data

Results flagged for a closer look

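Of 40 groups of values checked for a tumour far from the rest (10 genes in 4 groups), 3 had one, and chance flags about 1 in 20 groups. Cxcl5 in tumour 19/23 stood at 10.66 on the deposited log2 scale (1585 normalised counts), while the other Balb/c tumours on 0.86% lay between 5.45 and 6.32. Cxcl1 in tumour 17, of Balb/c hosts on 0.172%, stood at 9.37 (629 normalised counts), while the other 5 tumours of its group lay between 8.14 and 8.34. Cxcl1 in tumour 12, of NSG hosts on 0.86%, stood at 8.78 (406 normalised counts), while the other 5 lay between 7.57 and 7.87. In that tumour Cxcl2 was also the highest of its group, at 193 normalised counts. In the Balb/c group on 0.86%, where tumours 19/23 and 20/24 are both far from tumours 21 and 22 for several genes, no gap of the other 9 genes passed the limit for 4 tumours.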

How the results depend on the processing

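Over all members and named list genes, 1711 of 1809 values under an alternative kept their direction and their side of the threshold, 59 reversed, 25 lost a call and 14 gained one. For diet in Balb/c hosts 1 gene was called, against 112 with 24 libraries, 1625 with arrayWeights, 20 without libraries 19, 20, 23 and 24, and 0 with a mean of at least 10 counts, with the groups of the contrast only and with voom. For diet in NSG hosts 2 were called, against 61 with arrayWeights, 1 with 24 libraries, log2(count + 10), a mean of at least 10 counts or voom, and 0 with median centring or the groups only. For host on 0.172%, 796 genes and 0 members were called, against 1615 and 1 with arrayWeights, 1245 and 2 without the 4 libraries, and 2 members with the groups only. For host on 0.86%, 963 genes and 1 member were called, against 4829 and 3 with arrayWeights, 498 and 3 without the 4 libraries, and 1824 genes with 24 libraries. For the difference of diet effects 0 were called, against 116 with arrayWeights, 20 without the 4 libraries, 2 with 24 libraries, and 1 with a mean of at least 10 counts, plain eBayes or voom. Leaving out 1 tumour gave 1 to 122 genes for diet in Balb/c hosts (most without tumour 18), 0 to 2 in NSG hosts, 0 to 3 for their difference, 512 to 1123 for host on 0.172% with 0 to 2 members, and 527 to 1146 on 0.86% with 1 to 4 members. The cause of these changes was not tested.

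Members that changed sign did so as follows. Without the 4 libraries, diet in Balb/c hosts gave 0.05 for S100a8, 0.01 for S100a9, 0.01 for Cxcr2 and 0.09 for Cxcl5, host on 0.86% gave -0.58 for Cxcl5, and the difference of diet effects gave 0.09 for Cxcl5. With arrayWeights, diet in Balb/c hosts gave 0.07 for S100a8 and 0.02 for S100a9, diet in NSG hosts 0.04 for Ly6g, host on 0.172% -0.02 for Ly6g, host on 0.86% -0.35 for Cxcl5, and the difference 0.03 for Cxcl1, which was 0.02 with log2(count + 10) and 0.12 with voom. Ly6g for host on 0.86% was 0.06 with 24 libraries and 0.04 with log2(count + 10). Leaving out 1 tumour, diet in Balb/c hosts ranged from -1.25 to 0.52 for S100a8, -1.44 to 0.86 for S100a9, -0.95 to 0.36 for Cxcr2, -0.87 to 0.17 for Retnlg, -1.03 to 0.25 for Cxcl1, -1.66 to 0.10 for Cxcl2 and -1.25 to 0.41 for Cxcl3. In NSG hosts it ranged from -0.05 to 0.14 for S100a8, -0.06 to 0.17 for Csf3r, -0.08 to 0.06 for Ly6g, -0.10 to 0.11 for Cxcl3 and -0.24 to 0.17 for Cxcl5. Host on 0.86% ranged from -0.21 to 0.06 for Ly6g and -0.38 to 1.35 for Cxcl5. The difference of diet effects ranged from -1.32 to 0.46 for S100a8, -1.60 to 0.70 for S100a9, -1.19 to 0.12 for Cxcr2, -1.02 to 0.02 for Retnlg, -0.69 to 0.59 for Cxcl1, -1.30 to 0.46 for Cxcl2 and -1.28 to 0.38 for Cxcl3. No paired analysis was possible because the library numbers 1 to 24 do not repeat across groups. Counts near 0 limit Ly6g, Retnlg and Cxcr2.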
